A study of Rattus norvegicus with 9 samples.

Results

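Solute carriers are the membrane proteins that move sugars, amino acids, inorganic ions, metals, lactate and organic ions into and out of cells and organelles. The genes described here were chosen by symbol and level alone: every gene whose symbol begins with Slc and a digit, and whose mean count over the 9 libraries was at least 50. Of 19085 genes in the table, 328 carried such a symbol and 182 of these reached the level, so 146 were left out. The members just inside the limit were Slc26a8 (mean count 57.4), Slc16a14 (53.1) and Slc5a3 (51.7), and the genes just outside it were Slc18a2 (44.2), Slc3a1 (43.2) and Slc35g1 (40.7). All 182 had enough counts for a test. Of these, 3 match by symbol only and are no transporters (Slc7a6os, Slc4a1ap and the pseudogene Slc25a5-ps9), which leaves 179 transporters.

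The cells were primary osteoblasts grown from the calvaria of newborn male Sprague-Dawley rats, although the tissue field of the labels reads knee. All groups were kept for 7 days in an osteogenic medium with β-glycerophosphate, ascorbic acid and dexamethasone. The control group had this medium alone, the thrombin group had thrombin at 20 U/mL in addition, and the PD03 group had the same thrombin dose together with PD0325901 (PD03), which blocks the kinase MEK, at 0.1 μM (0.1 mM in a protocol of the labels). Each group had 3 libraries of polyadenylated RNA. No group had PD03 without thrombin, and the labels do not say whether the libraries of a group came from separate animals, so p-values measure the spread between these libraries.

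In bone-forming cells, sodium-coupled phosphate transporters supply phosphate for mineral, glucose transporters and the lactate exporters serve a largely glycolytic metabolism, and amino acid transporters feed the synthesis of collagen. Zinc importers of the ZIP family (Slc39) bring zinc into the cytosol, and the ZnT family (Slc30) moves it out or into vesicles. Transporters of organic anions and cations handle carnitine, steroid conjugates and drugs, and their class here also counts transporters of sulfate, an inorganic anion. Mitochondrial carriers (Slc25) move metabolites across the inner mitochondrial membrane.

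Total counts per library lay between 15447832 and 19841468, and the members took 0.99% to 1.07% of them. Levels are given as CPM (counts scaled to the library's size with TMM factors) within a gene, and as FPKM, which also divides by gene length, where genes are compared with each other. The osteoblast identity was only partly borne out by its markers: Col1a1, Col1a2, Sparc and Runx2 were abundant, while Bglap, Ibsp, Dmp1 and Dlx5 stayed under 1 CPM in every library and Alpl between 0.329 and 3.79 CPM. The leukocyte markers Ptprc and Tyrobp, the fat cell marker Adipoq, the endothelial marker Pecam1 and the epithelial marker Krt5 were also under 1 CPM in every library, but other genes of the same lists were not: Lpl lay at 97.5 to 211 CPM (called lower with thrombin, -1.06), Ctsk at 91.2 to 167 CPM, Tek at 5.48 to 10.2 CPM and Krt8 at 3.39 to 11.8 CPM. The osteoblast list did not move as 1. With thrombin, Alpl was called lower (-2.2), but Spp1 and Postn were called higher (1.54 and 0.77). For PD03 against thrombin, Col1a1, Col1a2, Sparc and Alpl were called higher (0.75, 0.75, 0.69 and 3.14), but Runx2 and Spp1 lower (-0.67 and -1.80). Summed over 14 osteoblast markers, of which Col1a1 made up most, the control libraries lay at 66000 to 72200 CPM, the thrombin libraries at 61000 to 64300 CPM and the PD03 libraries at 103000 to 107000 CPM. Smooth muscle markers (5 genes, mostly Cnn1) summed to 57.1 to 61.4 CPM, 75.4 to 80.9 CPM and 153 to 154 CPM in the same order, and neural markers (5 genes, mostly Tubb3) to 42.5 to 49.8 CPM, 60.1 to 65 CPM and 99.2 to 104 CPM. The adipocyte list (6 genes, nearly all of it Lpl) summed to 202 to 213 CPM, 98.2 to 104 CPM and 155 to 166 CPM, the myeloid and osteoclast list (9 genes, mostly Ctsk) to 134 to 144 CPM, 101 to 109 CPM and 172 to 180 CPM, and the chondrocyte list (5 genes, mostly Col2a1) to 94.4 to 104 CPM, 68.5 to 74.5 CPM and 88.6 to 95.7 CPM. With thrombin, Col2a1 was called lower (-0.78), but Sox9 and the scarce Acan were called higher (0.89 and 1.29), and Col9a1 and Comp were not called. For PD03 against control, Col2a1 was called lower (-0.58), but Sox9, Acan, Col9a1 and Comp were called higher (1.08, 1.02, 0.87 and 1.66). The endothelial list (4 genes) summed to 7.88 to 8.9 CPM, 7.29 to 9.75 CPM and 12 to 14 CPM, and the epithelial list (3 genes) to 6.25 to 8.33 CPM, 3.57 to 4.99 CPM and 8.87 to 12.1 CPM. None of the genes found was at 0 in all libraries. Their part in the values below was not tested, and in such bulk RNA a change in the share of a cell type cannot be told apart from a change in RNA per cell.

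Promoter sequence is shown for 4 members, because the amino acid and zinc transporters are the classes whose control by nutrient-sensing factors is best known. RefSeq promoters (build GRCr8, the 250 bases before the annotated start, first entry of each gene) were found for 145 of the 182 members. The letters TGATGNAA, read on both strands, are the core of the composite site bound by ATF4 with C/EBP factors under amino acid shortage. They occurred in 3.27% of 27457 promoters, in 6 of 145 member promoters (4.14%) and in 3 of 21 promoters of amino acid transporters (Slc7a1, Slc38a1 and Slc1a4). The metal response element of the zinc sensor MTF1, searched as TGCACNC or TGCGCNC on both strands, occurred in 21.2% of all promoters, in 47 of 145 member promoters (32.4%) and in 6 of 14 promoters of zinc transporters (Slc30a1, Slc30a4, Slc30a5, Slc39a1, Slc39a11 and Slc39a13). The AP-1 letters TGANTCA stood in 8 member promoters (5.52%, against 6.36% of all) and the ETS letters CCGGAAG in 17 (11.7%, against 7.74% of all). The cyclic AMP response element TGACGTCA stood in 4 (2.76%, against 1.7% of all) and the hypoxia response core ACGTGC in 9 (6.21%, against 4.89% of all). None of these motifs contains another, although matches can overlap, and a match of letters is a description, not a bound site. The 3 amino acid transporter promoters and that of the zinc exporter gene Slc30a1 are printed from 5′ to 3′, with the matched letters in capitals.
Slc7a1, chr12:11664238-11664487, plus strand, match from 30 bases before the start: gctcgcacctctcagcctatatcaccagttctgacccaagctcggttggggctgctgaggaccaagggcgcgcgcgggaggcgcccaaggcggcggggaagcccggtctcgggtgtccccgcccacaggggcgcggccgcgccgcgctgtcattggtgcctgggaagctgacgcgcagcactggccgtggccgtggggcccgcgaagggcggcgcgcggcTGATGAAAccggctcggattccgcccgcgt
Slc38a1, chr7:129681402-129681651, minus strand, match from 142 bases before the start: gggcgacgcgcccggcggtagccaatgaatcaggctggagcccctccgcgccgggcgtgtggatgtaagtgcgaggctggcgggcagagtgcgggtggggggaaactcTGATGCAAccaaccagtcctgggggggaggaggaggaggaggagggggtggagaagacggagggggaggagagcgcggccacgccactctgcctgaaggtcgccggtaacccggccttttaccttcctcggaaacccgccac
Slc1a4, chr14:98761563-98761812, minus strand, match on the opposite strand from 235 bases before the start: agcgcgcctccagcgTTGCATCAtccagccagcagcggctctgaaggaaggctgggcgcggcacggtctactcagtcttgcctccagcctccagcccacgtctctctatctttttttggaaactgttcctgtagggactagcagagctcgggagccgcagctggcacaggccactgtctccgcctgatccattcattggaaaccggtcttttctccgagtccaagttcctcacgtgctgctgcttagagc
Slc30a1, chr13:106021769-106022018, plus strand, both matches on the opposite strand, from 91 and 18 bases before the start: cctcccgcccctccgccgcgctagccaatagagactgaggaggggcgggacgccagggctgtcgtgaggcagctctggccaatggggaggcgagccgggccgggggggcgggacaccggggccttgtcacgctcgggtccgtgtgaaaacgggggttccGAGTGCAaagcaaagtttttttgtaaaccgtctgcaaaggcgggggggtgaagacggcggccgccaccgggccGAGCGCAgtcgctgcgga

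The level of the members, as mean FPKM over the 9 libraries, had a median of 8.30, with quartiles at 3.94 and 19.5. The highest were the ADP/ATP carriers of the inner mitochondrial membrane, Slc25a4 (382 FPKM) and Slc25a5 (236 FPKM), and the neutral amino acid transporter Slc38a2 (149 FPKM). Near-identical pseudogenes such as Slc25a5-ps9 make the counts of Slc25a5 uncertain. The zinc importers Slc39a14 (125 FPKM) and Slc39a1 (96.0 FPKM) followed. As a sum over class members, the 32 mitochondrial carriers held 29.4% of the members' FPKM, the 24 amino acid transporters 19.2%, the 16 zinc transporters 13.7% and the 17 nucleotide sugar transporters, which supply the Golgi, 9.32%. The 11 genes of the glucose class held 3.45%, the 15 of the organic anion and cation class 2.18%, the 6 of the lactate and monocarboxylate class 2.11% and the 2 phosphate transporters 1.67%.

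**Figure D1:**
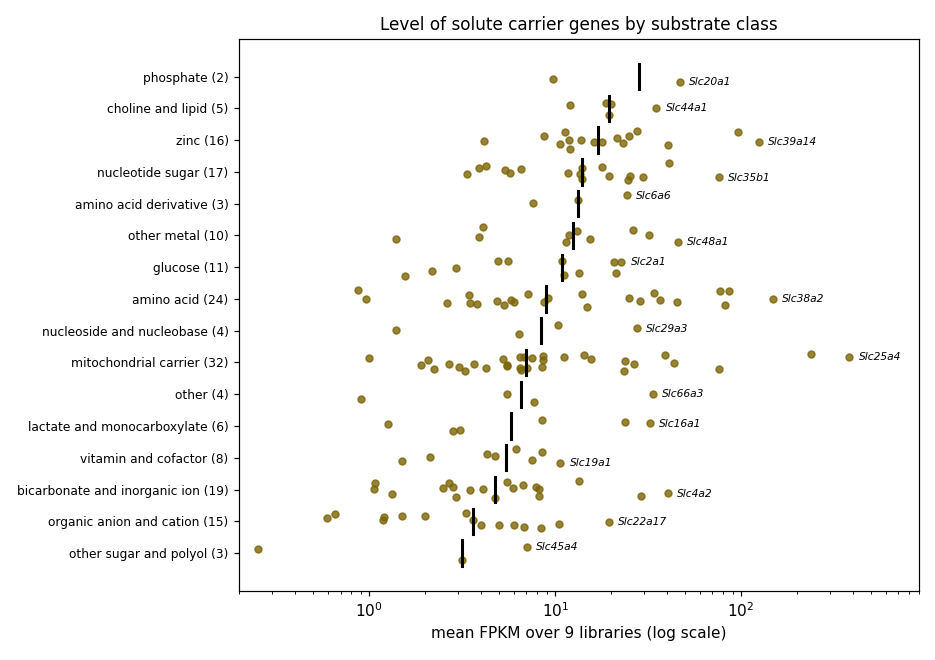
Each point is 1 of 179 transporter genes, placed by its mean FPKM over 9 libraries on a log axis and by substrate class (number of genes in brackets), with a black bar at the class median and the highest gene of each class named. The mitochondrial class spans from 1.00 FPKM (Slc25a27) to 382 FPKM (Slc25a4), and the organic anion and cation class stays under 20 FPKM.

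Thrombin raised 13 members and lowered 10 against the control group (adjusted p under 0.05 and absolute log2 fold change above 0.58, edgeR quasi-likelihood test over 13256 genes). Among all tested genes 2.62% were called higher and 5.44% lower, and among the 11030 tested genes that reached the members' minimum mean count 2.36% and 4.32%. The called members made up 12.6% of the 182, against 8.06% of all tested genes. With no fold threshold, 41 members were higher and 36 lower at an adjusted p under 0.05, beside 28.7% of all tested genes in either direction. The median log2 fold change of the members was -0.03, beside -0.01 for all tested genes. The PD03 group had 27 members higher and 14 lower than the thrombin group, 22.5% of the members against 15.9% of all tested genes (9.61% higher and 6.31% lower, or 7.85% and 5.88% at the members' minimum count). With no fold threshold the counts were 69 and 35, beside 49.8% of all tested genes. On FPKM values with 1 added, this split was 12 higher and 14 lower, while the share of called genes that were higher went from 60.4% to 42.8% over all tested genes and from 65.9% to 46.2% over the members. With library totals in place of TMM factors it was 24 higher and 16 lower (60% higher), and over all tested genes 46.5% higher. The PD03 group was also compared with the control group, and all 3 comparisons share libraries, so their values are set side by side and not combined. A lack of overlap between the libraries of 2 groups was common. It held for 40.3% of all tested genes (52.7% of members) for thrombin against control. The shares were 55.5% (61%) for PD03 against thrombin and 47.8% (54.9%) for PD03 against control.

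Between PD03 and control, 11 members were higher and 8 lower, 10.4% of the members against 8.97% of all tested genes (4.9% higher and 4.07% lower, or 4.05% and 3.35% at the members' minimum count). With no fold threshold the counts were 62 and 24, beside 39.9% of all tested genes. This split depended on the scaling. With library totals in place of TMM factors, the median of all genes in this comparison moved to -0.12 and that of the members to -0.02, and the split was 3 higher and 9 lower. Over all tested genes the share of calls that were higher likewise went from 54.6% to 34.1%, and over the members from 57.9% to 25%. Without control replicate 1, the count of members higher was 6. The members' median stayed above that of all genes under both scalings (0.09 beside -0.0039 with TMM). In all, 50 members were called in at least 1 comparison and 132 in none.

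**Figure D2:**
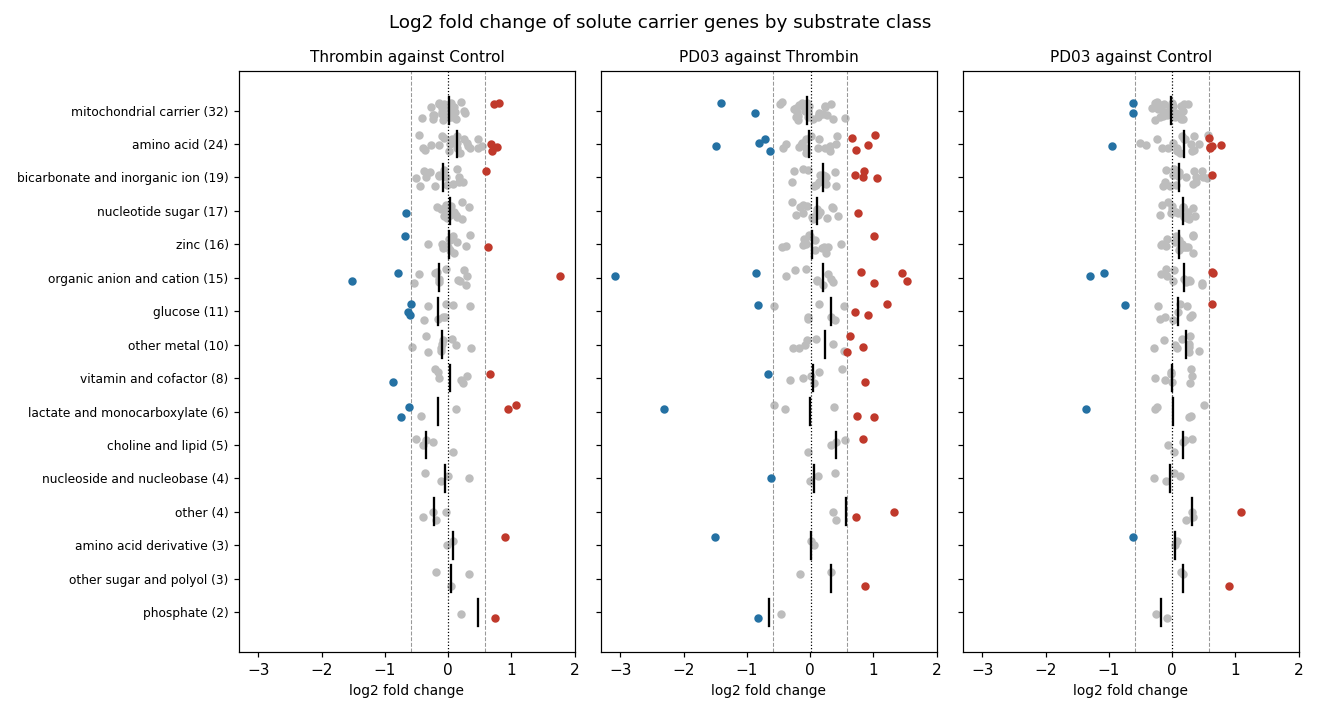
Each point is the log2 fold change (x axis) of 1 of 179 transporter genes in 1 of 3 comparisons (panels), by substrate class, in red where called higher, in blue where called lower and in grey otherwise, with black bars at class medians, a dotted line at the median of all tested genes and dashed lines at the fold threshold of 0.58. The glucose class has 3 blue points and no red one for thrombin against control, and the lowest point for PD03 against thrombin is Slc47a1.

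The phosphate class held 2 members, the sodium-coupled transporters PiT-1 (Slc20a1) and PiT-2 (Slc20a2). Slc20a1 stood at 117, 118 and 128 CPM in control, 180.0, 209 and 216 CPM with thrombin and 100.3, 121 and 119.9 CPM with PD03. The 3 thrombin libraries lay above all others, and the control and PD03 groups overlapped. It was 1.67-fold higher with thrombin than in control (log2 fold change 0.74, SE 0.06, adjusted p = 2.14e-14) and 1.78-fold lower with PD03 than with thrombin (log2 fold change -0.83, SE 0.06, adjusted p = 3.24e-16). Slc20a2 was lower in level, at 36.5, 37.8 and 40.9 CPM in the control libraries, 42.6, 46.3 and 43.5 CPM in the thrombin libraries and 31.2, 34.1 and 31.2 CPM in the PD03 libraries. Its thrombin libraries were the highest as well, but the log2 fold changes of 0.20 (thrombin against control) and -0.46 (PD03 against thrombin) did not pass the fold threshold. In FPKM, Slc20a1 (47.0) was the more abundant of the pair over Slc20a2 (9.77), and their summed level was 50.1 ± 2.26 FPKM in the control group, 77.6 ± 6.41 in the thrombin group and 42.6 ± 3.82 in the PD03 group (SD, n = 3). These sums rest on library totals and carry no TMM factor, unlike the CPM values and log2 fold changes above.

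Other genes of phosphate and pyrophosphate handling were taken from a list of partner genes (25, of which 23 were found and tested). Enpp1, which makes pyrophosphate, had 18.2, 18.5 and 18.6 CPM in control, 36.3, 41.5 and 38 CPM with thrombin and 14.8, 17.4 and 15.4 CPM with PD03. It rose with thrombin (log2 fold change 1.07) and was lower with PD03 than with thrombin (-1.29), with no overlap between the thrombin libraries and the rest. Alpl, the phosphatase that breaks pyrophosphate down, was near the floor in the thrombin group, with 6 counts in each library, and was called lower there than in the control group. It was called higher with PD03 than with thrombin, and than in control, the latter not without control replicate 1 or 2 or PD03 replicate 3. The pyrophosphate exporter Ankh and the phosphate exporter Xpr1 were not called in any comparison.

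Of the 11 members of the glucose class, thrombin raised 0 and lowered 3, and the PD03 group had 3 higher and 1 lower than the thrombin group. The shares called, 27.3% and 36.4%, stood beside 8.06% and 15.9% of all tested genes. The class median log2 fold change was -0.17 and 0.33 in these comparisons. The widely expressed glucose transporter Slc2a1 was the highest of the class (22.7 FPKM), with 56.3, 58.5 and 57.8 CPM in the control libraries, 73.3, 73.9 and 73.2 CPM in the thrombin libraries and 48.8, 49.3 and 49.9 CPM in the PD03 libraries. Its 3 groups did not overlap, with thrombin highest and PD03 lowest. The log2 fold changes of 0.35 and -0.57 (adjusted p = 7.83e-07 and 3.41e-12, edgeR) stayed inside the fold threshold, the latter so closely that it was called lower (-0.58 to -0.59) without control replicate 2 or 3, thrombin replicate 1 or 2, or PD03 replicate 2 or 3. It was also called lower with DESeq2 or its size factors (-0.58), between the 2 groups alone (-0.58), with no filter on low counts (-0.59), with library totals (-0.67) and on FPKM with 1 added (-0.64) or 0.1 added (-0.67).

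The high-affinity glucose transporter Slc2a3 had 46.1, 48.5 and 50.3 CPM in control, 46, 52.7 and 53.3 CPM with thrombin and 28.6, 28 and 29.5 CPM with PD03. Control and thrombin libraries overlapped and all PD03 libraries were lower (log2 fold change -0.82, SE 0.07, adjusted p = 7.48e-14 against thrombin). The 3 members that fell with thrombin were Slc2a10, a hexose transporter of intracellular membranes, Slc2a9, which carries urate, and the fructose transporter Slc2a5. Slc2a10 had 16.3, 19.1 and 18.4 CPM in the control libraries, 12.4, 11.9 and 11.5 CPM in the thrombin libraries and 28.1, 27.3 and 27.4 CPM in the PD03 libraries. Thrombin libraries were the lowest and PD03 libraries the highest, with no overlap. Its log2 fold change was -0.58 for thrombin against control, 1.21 for PD03 against thrombin and 0.63 for PD03 against control, the last 0.56 and not called without control replicate 1. Slc2a9 had 14.1, 12.1 and 11.7 CPM in control, 8.51, 7.9 and 8.22 CPM with thrombin and 13.8, 13.1 and 13.5 CPM with PD03, so that only the thrombin group stood apart. Slc2a5 had 5.66, 5.56 and 4.99 CPM in the control libraries, 2.8, 3.4 and 4.49 CPM in the thrombin libraries and 8.42, 5.25 and 6.24 CPM in the PD03 libraries.

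The thrombin calls of the glucose class lay close to the fold threshold, and each was lost in some alternative fits. Slc2a10 was not called with DESeq2, its size factors, limma voom or no filter on low counts (-0.57 to -0.58), nor without control replicate 2 (-0.53), control replicate 3 (-0.56), thrombin replicate 2 (-0.58), thrombin replicate 3 (-0.56) or PD03 replicate 2 (-0.58), and Slc2a9 was not called without control replicate 1 (-0.53). Slc2a5 was not called without control replicate 1 (-0.56), control replicate 2 (-0.58), thrombin replicate 1 (-0.46) or thrombin replicate 2 (-0.56). Over the fits without 1 library, 1 to 3 members of the class were called lower. Slc37a3, placed in this class by its family of sugar-phosphate exchangers, and the sugar transporter Slc50a1 came next to Slc2a1 in level, at 21.2 and 20.6 FPKM. Neither was called in any comparison. Hk2, the inducible hexokinase, had 32.5, 31.8 and 33.7 CPM in control, 47.2, 51.4 and 49.8 CPM with thrombin and 25.8, 27.6 and 32.1 CPM with PD03, with log2 fold changes of 0.60 with thrombin and -0.80 for PD03 against thrombin. Without thrombin replicate 2 the thrombin value was 0.57, under the threshold. Hk1 and the glucose-sensing arrestin Txnip were not called.

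All 6 members of the lactate and monocarboxylate class had an adjusted p under 0.05 for thrombin against control, and 4 also passed the fold threshold, 2 in each direction. Among all tested genes these shares were 28.7% and 8.06%. The low-affinity lactate exporter MCT4 (Slc16a3) had 46, 47.2 and 47.6 CPM in the control libraries, 104, 93 and 99.3 CPM in the thrombin libraries and 65.1, 68.5 and 65.6 CPM in the PD03 libraries. Every thrombin library lay above every PD03 library, and these above every control library. It was 2.1-fold higher with thrombin than in the control group (log2 fold change 1.07, SE 0.05, adjusted p = 3.56e-20), and the PD03 group was lower than the thrombin group by a log2 fold change of -0.57, just inside the threshold. That value was called without control replicate 2 or 3 (-0.58), thrombin replicate 2 (-0.62) or PD03 replicate 2 (-0.60), and with library totals (-0.67), no filter on low counts (-0.59), the 2 groups alone (-0.58) and FPKM with 1 added (-0.61) or 0.1 added (-0.66). The ubiquitous lactate and pyruvate transporter MCT1 (Slc16a1), the highest of the class at 32.2 FPKM, had 108, 107 and 109.5 CPM in control, 119, 119 and 118 CPM with thrombin and 86.3, 99.3 and 84.9 CPM with PD03. Its log2 fold changes were 0.13 and -0.40, not called. In RefSeq, the Slc16a3 locus overlaps Csnk1d on the opposite strand, and since strandedness is not given, reads of these genes cannot be told apart with certainty. Reads are likewise uncertain for the overlaps of Slc2a10 with Elmo2, Slc6a9 with Ccdc24, Slc20a2 with Smim19 and Slc25a13 with Rpl31l14.

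Slc16a4, whose substrate is uncertain, had 6.47, 5.11 and 6.32 CPM in the control libraries, 4.28, 3.62 and 2.8 CPM in the thrombin libraries and 6.46, 7.25 and 7.84 CPM in the PD03 libraries. Thrombin libraries were the lowest (log2 fold change -0.75, SE 0.17, adjusted p = 0.000873), and the PD03 group was higher than the thrombin group (1.01). Slc16a14, also without a settled substrate, had 3.1, 3.16 and 2.08 CPM in control, 4.34, 6.25 and 5.6 CPM with thrombin and 1.38, 0.712 and 1.1 CPM with PD03. The 3 groups did not overlap, and the PD03 group was 4.97-fold lower than the thrombin group (log2 fold change -2.31, SE 0.25, adjusted p = 1.68e-10), at 11 to 26 counts per PD03 library. Of the partner genes, the MCT chaperone Bsg was not called, while Emb, the other chaperone, was higher with PD03 than with thrombin (0.86). Ldhb, the lactate dehydrogenase subunit of oxidative tissues, had 20.2, 20.6 and 18.5 CPM in the control libraries, 12.7, 12.7 and 13.7 CPM in the thrombin libraries and 26.8, 27.3 and 25.8 CPM in the PD03 libraries (log2 fold change -0.60 and 1.03), and the thrombin value was -0.57 without control replicate 2 and -0.58 without thrombin replicate 2, under the threshold. Ldha, the subunit of glycolytic tissues, was not called.

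**Figure D3:**
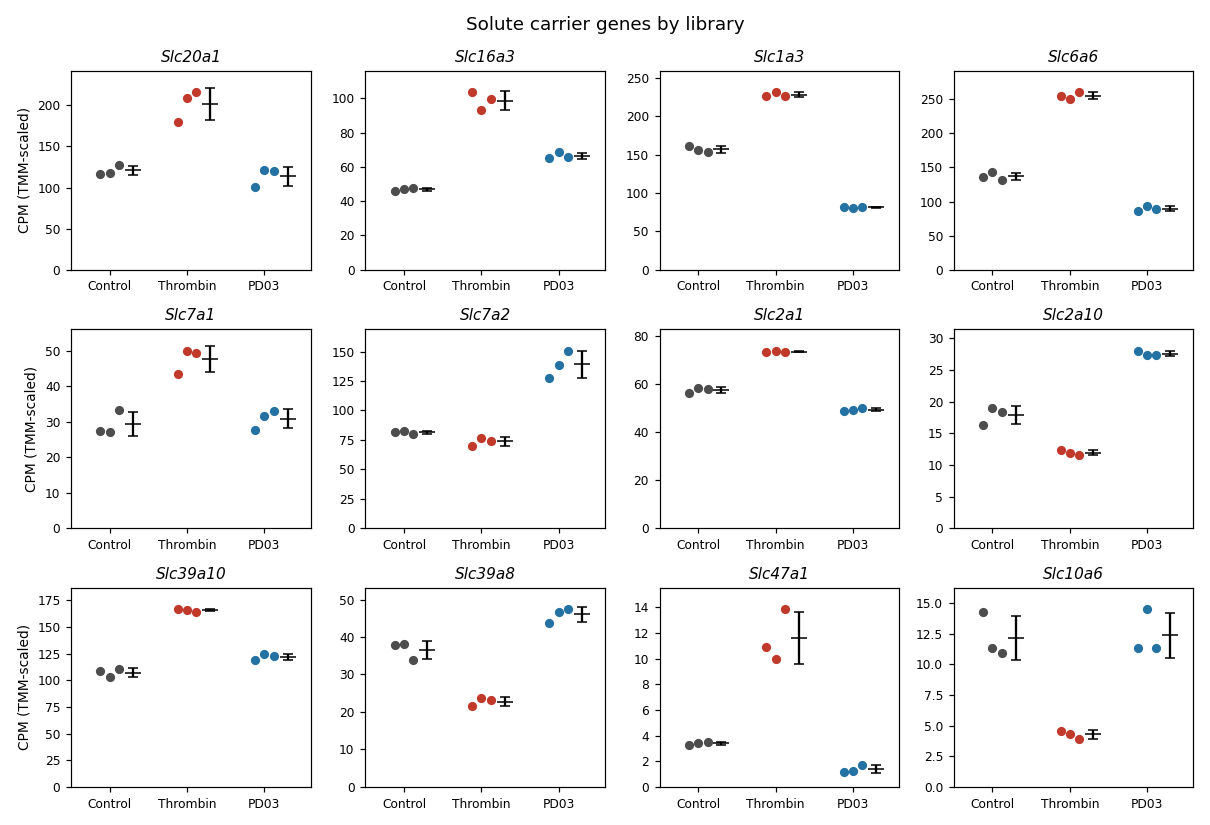
Each panel shows 1 of 12 members, with CPM on a linear axis from 0, coloured points for the 3 libraries of each group and black marks for the mean ± SD. Slc20a1, Slc16a3, Slc1a3, Slc6a6, Slc7a1, Slc2a1, Slc39a10 and Slc47a1 have their thrombin libraries above all others, and Slc7a2, Slc2a10, Slc39a8 and Slc10a6 have them below all others.

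Among the 24 amino acid transporters, thrombin raised 3 and lowered 0, and the PD03 group had 4 higher and 4 lower than the thrombin group. That was 12.5% and 33.3% of the class, beside 8.06% and 15.9% of all tested genes. The glutamate transporter Slc1a3 had the largest fall of the class with PD03, at 162, 156 and 153 CPM in control, 226, 231 and 226 CPM with thrombin and 81.3, 80.8 and 82 CPM with PD03. The 3 groups did not overlap: thrombin was highest and PD03 lowest. PD03 was 2.8-fold lower than thrombin (log2 fold change -1.49, SE 0.04, adjusted p = 2.13e-29) and also lower than control (log2 fold change -0.95, SE 0.04, adjusted p = 9.34e-22), while the rise with thrombin (0.54) stayed inside the fold threshold. The glutamine transporter Slc1a5 had 71.2, 69.9 and 73.3 CPM in the control libraries, 85.9, 83.4 and 94.1 CPM in the thrombin libraries and 52.7, 48.6 and 49.7 CPM in the PD03 libraries and the same order of groups, with log2 fold change -0.80, SE 0.06, adjusted p = 5.72e-16 for PD03 against thrombin. The glycine transporter Slc6a9 had 19.2, 24.1 and 24.9 CPM in control, 30.4, 31.8 and 31.8 CPM with thrombin and 19.8, 18.6 and 18.9 CPM with PD03, with the thrombin libraries highest and a log2 fold change of -0.71 for PD03 against thrombin.

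The arginine and lysine transporter Slc7a1, whose promoter is shown above, had 27.6, 27.3 and 33.3 CPM in the control libraries, 43.4, 50.1 and 49.4 CPM in the thrombin libraries and 27.9, 31.8 and 33.2 CPM in the PD03 libraries. Only the thrombin group stood apart, by 0.70 from control and -0.63 for PD03 against thrombin, and the latter was -0.55 and not called without PD03 replicate 1. The other cationic amino acid transporter, Slc7a2, had 81.6, 82.8 and 80.2 CPM in control, 70.1, 76.9 and 74 CPM with thrombin and 128, 139 and 151 CPM with PD03. Here the PD03 group stood furthest apart, above thrombin (log2 fold change 0.92, SE 0.05, adjusted p = 1.1e-18) and above control (0.77). Slc1a4, a transporter of serine, alanine and cysteine, had 116, 117 and 117 CPM in the control libraries, 112, 109.9 and 111 CPM in the thrombin libraries and 178, 177 and 169.8 CPM in the PD03 libraries and was likewise highest with PD03 (0.66 against thrombin and 0.59 against control). Neither value was called with library totals (0.56 and 0.47) or on FPKM with 1 added (0.54 and 0.46), and that against control was not called without PD03 replicate 1 or 2 (0.57) or with no filter on low counts (0.58). The glutamine transporter Slc38a1 had 12.2, 13.5 and 13.5 CPM in control, 18.9, 24.2 and 23.6 CPM with thrombin and 20.2, 19.6 and 19.4 CPM with PD03. Thrombin and PD03 libraries overlapped, both lay above control, and its log2 fold change was 0.77 for thrombin and 0.60 for PD03 against control. The latter was 0.55 without control replicate 1 and 0.58 without PD03 replicate 1, not called.

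The remaining called amino acid genes were of low level. Slc6a17, a transporter known from synaptic vesicles, had 4.57, 5.49 and 4.29 CPM in the control libraries, 6.84, 7.18 and 8.92 CPM in the thrombin libraries and 7.05, 4.79 and 5.69 CPM in the PD03 libraries and rose with thrombin (log2 fold change 0.68, SE 0.16, adjusted p = 0.00113), but by 0.55 and not called without thrombin replicate 3. Slc7a8, another light chain of the large neutral amino acid system, had 2.67, 3.79 and 3.66 CPM in control, 2.8, 2.03 and 2.51 CPM with thrombin and 4.66, 5.05 and 5.2 CPM with PD03 and was higher with PD03 than with thrombin (1.02). The lysosomal arginine sensor Slc38a9 was also higher with PD03 than with thrombin (0.72), and the proton-coupled lysosomal exporter Slc36a1 and the basolateral transporter Slc7a7 were higher with PD03 than in the control group (0.63 and 0.60). These calls were lost with library totals (0.52 and 0.48), Slc36a1 without control replicate 3 (0.52) and Slc7a7 without control replicate 1 (0.47) or PD03 replicate 2 (0.57). Against control, 5 of 24 were higher and 1 lower with TMM scaling, and 1 higher and 2 lower with library totals. The TMM calls were 25% of the class, beside 8.97% of all tested genes. With library totals, 10.4% of all tested genes were called.

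The most abundant genes of the class moved less. Slc38a2, the neutral transporter induced by amino acid shortage, had 622, 623 and 599 CPM in the control libraries, 622, 628 and 623 CPM in the thrombin libraries and 786, 853 and 845 CPM in the PD03 libraries. Slc38a4 and Slc38a10 followed at 86.3 and 82.0 FPKM, and for PD03 against thrombin the 3 had log2 fold changes of 0.41, 0.43 and 0.31, each with all PD03 libraries above all thrombin libraries and none past the fold threshold. Slc7a5, the main light chain of large neutral amino acid uptake, had 133, 149 and 152 CPM in control, 178, 186 and 190.1 CPM with thrombin and 132, 138 and 143 CPM with PD03, with thrombin highest (0.35 and -0.42, not called), while its heavy chain partner Slc3a2 had log2 fold changes of 0.14 and 0.02 (the latter -0.08 with library totals). The summed FPKM of the class, on library totals without TMM factors, was 620 ± 6.43 in the control group, 657 ± 7.5 in the thrombin group and 684 ± 11.7 in the PD03 group (SD, n = 3). Of the partner genes, the enzymes Glul, Asns, Gclc and Gclm, the transcription factor Atf4 and the cystine exporter Ctns were not called in any comparison.

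The taurine transporter Slc6a6 had 136, 143 and 132 CPM in the control libraries, 255, 250.2 and 260.4 CPM in the thrombin libraries and 86.5, 93.9 and 88.7 CPM in the PD03 libraries. Its 3 groups did not overlap, in the order PD03, control and thrombin. It was 1.86-fold higher with thrombin than in the control group (log2 fold change 0.90, SE 0.04, adjusted p = 2.59e-21) and 2.85-fold lower with PD03 than with thrombin (log2 fold change -1.51, SE 0.04, adjusted p = 3.48e-29), and PD03 was below control (-0.61). The creatine transporter Slc6a8, a close relative, had 49.8, 51.9 and 49.3 CPM in control, 55, 53.7 and 50.3 CPM with thrombin and 53.7, 53.8 and 52.5 CPM with PD03 and was not called. The lysosomal histidine and peptide transporter Slc15a4 was not called either.

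Of the 16 zinc transporters, thrombin raised 1 and lowered 1, and PD03 had 1 higher than thrombin and 0 lower. These were 12.5% and 6.25% of the class, beside 8.06% and 15.9% of all tested genes. None was called for PD03 against control. Both genes called for thrombin were importers. Slc39a10 had 109, 103 and 110.2 CPM in the control libraries, 167, 166 and 164 CPM in the thrombin libraries and 119, 124 and 123 CPM in the PD03 libraries. The thrombin libraries lay well above the rest (log2 fold change 0.63, SE 0.04, adjusted p = 8.52e-16), and the log2 fold change of PD03 against thrombin, -0.44, did not pass the threshold. Slc39a8, which also carries manganese and cadmium, had 37.9, 38 and 33.9 CPM in control, 21.5, 23.6 and 23.3 CPM with thrombin and 43.8, 46.8 and 47.4 CPM with PD03. Here thrombin was lowest (log2 fold change -0.68, SE 0.07, adjusted p = 2.36e-10) and PD03 was 2.02-fold higher than thrombin (log2 fold change 1.01, SE 0.07, adjusted p = 5.84e-16). In RefSeq, Slc39a8 overlaps an unnamed coding gene on the same strand, and the sources used here do not say how reads were shared between them.

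Slc39a14, the highest zinc transporter, had 592, 576 and 563 CPM in the control libraries, 698, 714 and 704 CPM in the thrombin libraries and 528, 537 and 558 CPM in the PD03 libraries. Its groups did not overlap, with thrombin highest, and its log2 fold changes of 0.29 and -0.38 were not called. The next in level, Slc39a1 and Slc39a6, had log2 fold changes between -0.01 and 0.11 over the 3 comparisons, of which those of Slc39a1 for PD03 against control and of Slc39a6 for PD03 against thrombin and control turned slightly negative with library totals. Slc39a13, an importer whose loss causes a connective tissue disorder, had 108, 111 and 114 CPM in control, 136, 146 and 140.3 CPM with thrombin and 140.2, 138 and 138 CPM with PD03, higher in both thrombin-treated groups than in control (0.35 and 0.32, not called). Of the 6 exporters and vesicle loaders, none was called. The exporter Slc30a1, whose promoter holds 2 matches to the metal response element as shown, had 37.5, 34.9 and 38.9 CPM in the control libraries, 27.4, 28.6 and 32.9 CPM in the thrombin libraries and 41.6, 40.1 and 42.9 CPM in the PD03 libraries, lowest with thrombin (-0.33 and 0.49).

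The zinc-binding metallothioneins, which MTF1 controls, moved far more than the transporters. Mt1 had 36.2, 35.4 and 35.4 CPM in control, 3.09, 3.4 and 3.67 CPM with thrombin and 1.01, 0.972 and 1.04 CPM with PD03, and Mt2A had 167, 183 and 188 CPM in the control libraries, 42.2, 46.5 and 45.6 CPM in the thrombin libraries and 16.2, 13.9 and 11.6 CPM in the PD03 libraries. Both fell with thrombin (log2 fold change -3.39 and -2.0) and were lower again with PD03 than with thrombin (-1.74 and -1.68), and no group overlapped another. Mtf1 itself had log2 fold changes of -0.10, -0.08 and -0.17 and was not called. Metallothionein genes have close copies, so the division of reads among them is uncertain.

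The organic anion and cation class, with 15 members, held the members with the largest rise and fall under thrombin, and likewise between PD03 and thrombin. Thrombin raised 1 and lowered 2, and PD03 had 4 higher and 2 lower than thrombin. These were 20% and 40% of the class, beside 8.06% and 15.9% of all tested genes. Both shares include Slc13a4, which carries the inorganic anion sulfate. Slc47a1, the proton-coupled exporter of organic cations MATE1, had 3.26, 3.41 and 3.47 CPM in control, 10.9, 9.98 and 13.9 CPM with thrombin and 1.17, 1.23 and 1.71 CPM with PD03. The 3 groups did not overlap. It was 3.42-fold higher with thrombin than in control (log2 fold change 1.78, SE 0.16, adjusted p = 6.74e-12) and 8.46-fold lower with PD03 than with thrombin (log2 fold change -3.08, SE 0.19, adjusted p = 1.78e-17). Its level over all libraries was low, 1.18 FPKM, and the PD03 libraries held 19 to 28 counts each.

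Slc10a6, which takes up sulfated steroids, had 14.2, 11.4 and 10.9 CPM in the control libraries, 4.58, 4.33 and 3.9 CPM in the thrombin libraries and 11.3, 14.5 and 11.3 CPM in the PD03 libraries. Thrombin libraries lay below all others, and control and PD03 libraries overlapped. It was 2.86-fold lower with thrombin than in control (log2 fold change -1.52, SE 0.14, adjusted p = 1.18e-11) and 2.89-fold higher with PD03 than with thrombin (log2 fold change 1.53, SE 0.14, adjusted p = 3.53e-12). The sulfate transporter Slc13a4 had 7.72, 7.26 and 6.38 CPM in control, 4.46, 3.89 and 3.96 CPM with thrombin and 10.6, 11.6 and 11.5 CPM with PD03. Its thrombin libraries were lowest and its PD03 libraries highest, with no overlap (-0.80, 1.45 and, for PD03 against control, 0.65, which was 0.57 and not called without control replicate 3).

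Slc22a23, an orphan of the organic ion family, had 11.5, 9.15 and 9.6 CPM in the control libraries, 8.39, 8.94 and 8.86 CPM in the thrombin libraries and 3.65, 6.02 and 4.96 CPM in the PD03 libraries. Control and thrombin libraries overlapped, and PD03 was lower than both (-0.85 and -1.07). The opposite was seen for Slc22a18 and the carnitine transporter Slc22a5, which were higher with PD03 than with thrombin (1.01 and 0.80). The 3 highest members of the class were the lipocalin receptor Slc22a17 (19.4 FPKM), Slc10a7 (10.4 FPKM) and Slc26a2, the sulfate transporter of cartilage (8.38 FPKM), and none was called in any comparison. Of 7 genes of the related Slco family of organic anion transporters, 3 had enough counts for a test. The prostaglandin transporter Slco2a1 had 24.8, 25.4 and 28.2 CPM in control, 12.7, 13.1 and 12 CPM with thrombin and 15.1, 16 and 15.1 CPM with PD03 and fell with thrombin (-1.05), Slco4a1 had 19.8, 19 and 16.2 CPM in the control libraries, 23.4, 25.4 and 22.8 CPM in the thrombin libraries and 6.52, 11.3 and 10.7 CPM in the PD03 libraries and was lower with PD03 than with thrombin (-1.34), and Slco3a1 was not called.

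For PD03 against thrombin, the share of members called differed among the remaining classes, beside 22.5% of all members and 15.9% of all tested genes. It was 5.88% of the 17 nucleotide sugar transporters, 6.25% of the 32 mitochondrial carriers and 30% of the 10 transporters of other metals. Small classes reached 33.3% (3 other sugar and polyol transporters) and 50% (the 4 genes classed as other). Of the 32 mitochondrial carriers, thrombin raised 2 and lowered 0, and PD03 had 0 higher and 2 lower than thrombin. Each was 6.25% of the class, beside 8.06% and 15.9% of all tested genes. The iron importer mitoferrin (Slc25a37) had 16, 16.3 and 16.2 CPM in control, 26.6, 28.3 and 29.3 CPM with thrombin and 10.5, 11.3 and 9.86 CPM with PD03. Its 3 groups did not overlap (log2 fold change 0.80, SE 0.09, adjusted p = 4.26e-10 for thrombin against control and log2 fold change -1.41, SE 0.09, adjusted p = 5.62e-17 for PD03 against thrombin), and its value for PD03 against control, -0.61, was -0.57 and not called without PD03 replicate 3. The ornithine carrier Slc25a15 had 8.43, 7.51 and 9.03 CPM in the control libraries, 15.1, 11.9 and 14.5 CPM in the thrombin libraries and 9.38, 9.33 and 11.2 CPM in the PD03 libraries and rose with thrombin (0.73). The aspartate and glutamate carrier Slc25a13 had 19.7, 18.5 and 17.8 CPM in control, 19.6, 24.2 and 23.3 CPM with thrombin and 11.4, 12.8 and 12.6 CPM with PD03, lowest with PD03 (-0.87 against thrombin). Its value against control, -0.61, was -0.57 without control replicate 1 and -0.56 without PD03 replicate 1, not called. The abundant Slc25a4 and Slc25a5 differed by -0.17 and -0.44 for PD03 against thrombin.

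The ascorbate transporter Slc23a2 carries a component of the medium that all groups shared, and had 24.2, 27.5 and 24.2 CPM in the control libraries, 37.8, 40.5 and 41.3 CPM in the thrombin libraries and 23.7, 27.1 and 24.4 CPM in the PD03 libraries. Only the thrombin group stood apart (log2 fold change 0.66, SE 0.07, adjusted p = 1.3e-09 against control, and log2 fold change -0.67, SE 0.07, adjusted p = 3e-10 for PD03 against thrombin). Slc46a3, a transporter of lysosomes, had 4.13, 4.42 and 4.11 CPM in control, 2.62, 2.19 and 2.1 CPM with thrombin and 4.93, 3.82 and 3.86 CPM with PD03, lowest with thrombin (-0.87 and 0.87). Slc66a3, a member with no settled substrate, had the largest rise of PD03 over control, with 51.9, 43.8 and 48.6 CPM in the control libraries, 41, 40.2 and 41.4 CPM in the thrombin libraries and 103, 104 and 102 CPM in the PD03 libraries (log2 fold change 1.10, SE 0.06, adjusted p = 5.16e-20). The nucleotide sugar transporter Slc35d2 had 7.67, 6.5 and 8.72 CPM in control, 5.77, 4.99 and 3.67 CPM with thrombin and 7.31, 8.1 and 9 CPM with PD03, and it was called lower with thrombin (-0.67) and higher with PD03 than with thrombin (0.75). The thrombin call was lost without control replicate 3 (-0.56) or thrombin replicate 3 (-0.51).

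Among the 19 transporters of bicarbonate and inorganic ions, thrombin raised 1 (the bicarbonate transporter Slc4a7, 0.61, but 0.57 and not called without control replicate 3) and PD03 had 4 higher than thrombin and 0 lower. That was 5.26% and 21.1% of the class, beside 8.06% and 15.9% of all tested genes. The largest of the 4 rises was that of the anion exchanger Slc4a3, with 12.9, 13.4 and 12.2 CPM in the control libraries, 8.56, 10.2 and 8.16 CPM in the thrombin libraries and 16.3, 21.4 and 18.8 CPM in the PD03 libraries and log2 fold change 1.06, SE 0.11, adjusted p = 1.12e-10. The others were the sodium and calcium exchangers Slc8a1 and Slc24a3 and the sodium and proton exchanger Slc9a9. In the class of other metals, 3 of 10 were higher with PD03 than with thrombin and 0 lower: the iron exporter ferroportin (Slc40a1, 0.84), the heme transporter Slc48a1 (0.59) and the copper transporter Slc31a2 (0.63). The latter 2 were not called with library totals (0.49 and 0.53) or without PD03 replicate 1 (0.55 and 0.53), and Slc48a1 also not without control replicate 2 or 3 (0.58) or thrombin replicate 1 or 2 (0.56), between the 2 groups alone (0.58) or with no filter on low counts (0.57). Of the 5 choline and fatty acid transporters, the choline transporter Slc44a2 was higher with PD03 than with thrombin (0.83), and the inositol transporter Slc2a13 was higher with PD03 than with thrombin (0.86) and control (0.91). These were named after their values were seen.

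**Figure D4:**
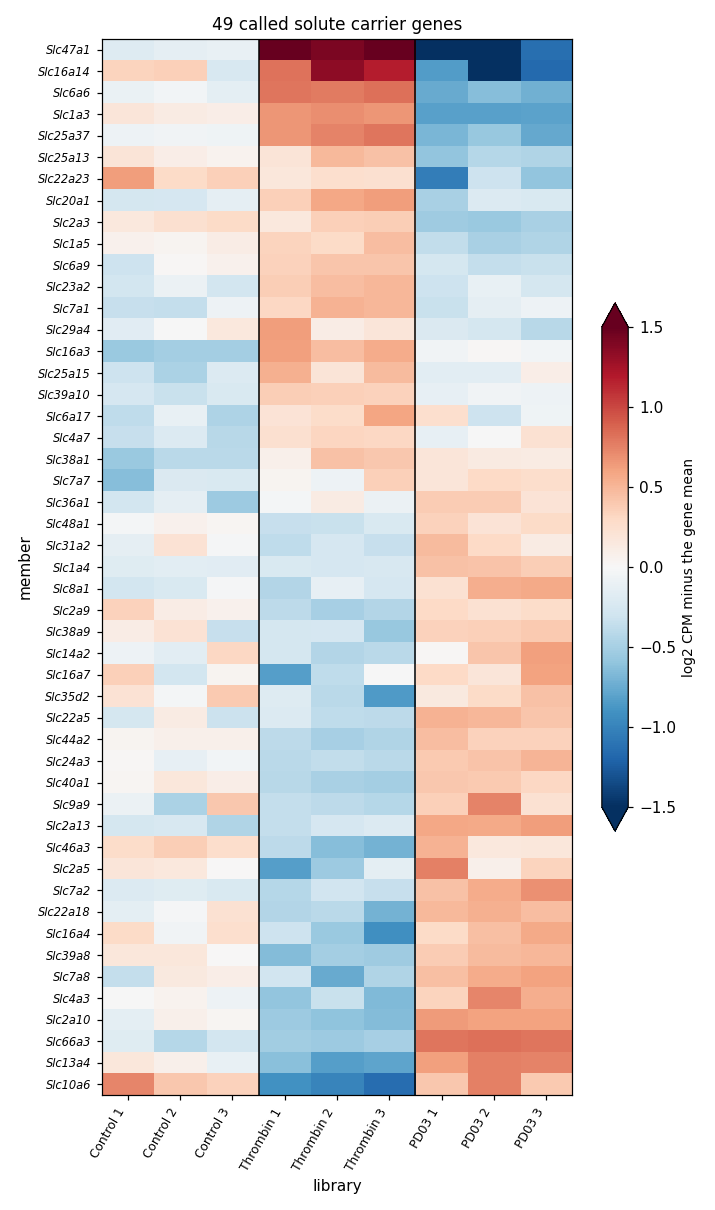
Rows are 49 of the 50 members called in at least 1 of 3 comparisons, ordered by the log2 fold change of PD03 against thrombin, columns are the 9 libraries, and colour is log2 CPM minus the gene's mean over libraries (values beyond 1.5 share the end colours). The top rows, led by Slc47a1, are red in the thrombin libraries and blue in the PD03 libraries, and the bottom rows, ending in Slc10a6, are the opposite.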

How the data were processed

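Polyadenylated RNA of 9 libraries (3 control, 3 thrombin, 3 PD03) was sequenced by the authors. The paper gives trimming with fastp, alignment with HISAT2 to Rnor_6.0, counting with featureCounts and testing with DESeq2 at the thresholds kept here (adjusted p under 0.05, absolute log2 fold change over 0.58). The submitters' processing notes name HTSeq 0.13.5 and a later rat build instead, so the counter and build are not settled, and neither the annotation release nor strandedness is stated there. The authors deposited raw counts per gene and library. The deposited FPKM values equal the count divided by the library total and by 1 length per gene, and they were used for levels between genes and as an alternative.

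Genes were kept by filterByExpr (minimum count 10), which left 13256. Counts were scaled by TMM and fitted over all 9 libraries with edgeR 4.0.16 (R 4.3.3) by the quasi-likelihood test, with Benjamini-Hochberg adjustment over every tested gene. Standard errors were taken from the F statistic. The procedure was tested on simulated data. Within groups, chi-square tests between libraries gave 1.81 to 3.88 per degree of freedom, above counting noise, so each library was kept as 1 sample, and the biological coefficient of variation was 4.28%. In every group, pairs with replicate 1 gave the larger values (2.98 to 3.88) and replicates 2 and 3 the smallest (1.81 to 2.13). Alternatives used DESeq2 1.42.0, limma 3.58.1, other scalings, filters and thresholds, a block for replicate number, FPKM with 1 or 0.1 added and fits without 1 library. Plots were made in matplotlib 3.10.9 under Python 3.11.15.

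Substrate classes were assigned by gene family. The members, classes, partner genes and marker lists were chosen with earlier results of these data known, and the 3 genes that match by name only were set aside after seeing the data. In each of thrombin against control and PD03 against thrombin, the 12 called members with the largest rise and the 12 with the largest fall were named, plus the 3 members with the highest mean FPKM in each of 6 classes (glucose, amino acid, phosphate, zinc, lactate and monocarboxylate, organic anion and cation), the partner list (23 of 25 genes found) and the Slco family. Any other gene was named after its values were seen. A named member and a partner gene are not reported here, although they remain in the counts.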

Additional observations from a re-analysis of the deposited data

How the results depend on the processing

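With 3 libraries a group, calls near the fold threshold are the least certain, and at 15447832 to 19841468 counts a library the members with a mean count near 50 have the widest errors. No call of a named gene turned to the opposite direction under any alternative. Of 219 log2 fold changes of named genes, 19 that were not called changed sign under at least 1 alternative, all 0.114 or smaller in size, and 15 did so with library totals. Size factors of DESeq2, DESeq2, limma voom, no filter on low counts, only the 2 groups compared, members with a mean count of at least 10 and (added after seeing the data) leaving out the name-only members kept every count within 1.5 times the values reported. For thrombin against control, the members called higher and lower were 41 and 36 with no fold threshold, 2 and 1 at a log2 fold change above 1, 5 and 1 when tested against the threshold, and 8 and 3 with 1 added to FPKM. Of all tested genes, 28.7%, 3.81%, 3.47% and 4.1% were called either way in the same order. Above 1, the share of the 182 members called was thus smaller than that of all tested genes. For PD03 against thrombin they were 69 and 35 with no fold threshold, 9 and 5 above 1, and 13 and 9 against the threshold, and 12 were higher with 1 added to FPKM. The shares of all tested genes called either way were 49.8%, 7.05%, 7.93% and 9.46%. For PD03 against control they were 62 and 24 with no fold threshold, 1 and 3 above 1, and 3 and 5 against the threshold, and 3 were higher with library totals, with 1 added to FPKM and with 0.1 added. Of all tested genes, 39.9%, 3.92% and 3.76% were called under these thresholds. The shares were 10.4% with library totals, 5.1% with 1 added to FPKM and 9.93% with 0.1 added. Above 1, the members' share was again the smaller. With a minimum mean count of 200, fewer members remained, 3 were lower with thrombin, 12 were higher for PD03 against thrombin, and 7 were higher and 5 lower for PD03 against control. With library totals, 8 members were no longer called for PD03 against control (Slc1a4 0.47, Slc38a1 0.48, Slc7a7 0.48, Slc22a5 0.51, Slc8a1 0.51, Slc2a10 0.51, Slc36a1 0.52 and Slc13a4 0.54), nor was the partner gene Emb (0.48), while Slc1a5 (-0.62) and the partner gene Gclc (-0.62) became called. For PD03 against thrombin 3 calls were lost (Slc48a1 0.49, Slc31a2 0.53 and Slc1a4 0.56) and Slc2a1 (-0.67) and Slc16a3 (-0.67) gained, and for thrombin against control Slc40a1 was gained (-0.59). Beyond the stricter or looser thresholds and the smaller member set, the cause was not tested.

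Without 1 library, members called higher were 12 to 13 (thrombin against control), 25 to 29 (PD03 against thrombin) and 6 to 12 (PD03 against control, lowest without control replicate 1), and members called lower were 8 to 11, 13 to 17 and 7 to 8. Among other named members not called in the full fit, thrombin against control was called for Slc7a8 (-0.61) and Slc22a18 (-0.62) without control replicate 1 and for Slc4a3 (-0.62) and Slc22a18 (-0.59) without thrombin replicate 2. PD03 against control was called for Slc7a8 without control replicate 2 (0.65), control replicate 3 (0.63) or PD03 replicate 1 (0.61) and for Slc4a3 without PD03 replicate 1 (0.65), and PD03 against thrombin for Slc25a15 without thrombin replicate 2 (-0.58). No pairing of the libraries by replicate number was seen. The correlations of same-numbered libraries' deviations lay between -0.0456 and 0.0523, and 2 of 9 libraries correlated best with their own number. Such correlations cannot exclude a culture or batch shared by a number. With a replicate block the counts were 13 and 10, 27 and 14, and 11 and 8, the values without it, and no call of a named gene changed.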
